A study of Mus musculus with 8 samples.

Results

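Ribosomal protein genes code for the proteins that, with ribosomal RNA, build the large and small subunits of the cytoplasmic ribosome. Of 53342 genes in each deposited table, 84 were taken by their symbols: protein-coding genes named Rpl or Rps with a number and an optional suffix, Rplp0 to Rplp2 and Rpsa, without genes marked as pseudogenes and without the Rps6k kinases. They comprise 52 large-subunit and 32 small-subunit genes. After a filter on low counts 75 of the 84 could be tested, 44 of the large and 31 of the small subunit, among 5256 genes in all. The other 9, among them Rps6, Rpl24, Rpl28, Rpl36, Rpl10a, Rpl39l, Rpl3l and Rpl10l, were too low to test.

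The libraries hold RNA of cardiac macrophages. The mice were wild type, of strain C57BL/6 and 8 weeks old, and the infarcted heart was taken 3 days after the infarction. Cells with much and with little of the surface antigen Ly6C, labelled Ly6Chi and Ly6Clo, were sorted apart. Each sort was kept in culture for 24 h without a cytokine or with interleukin 21 (IL-21) at 100 ng/mL, which gives 4 groups of 2 libraries, numbered 1 and 2 in their titles. The labels do not say how many mice a library came from or whether the 2 libraries of a group came from separate animals, so p-values measure the spread between these libraries, which may be technical.

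A ribosome needs its proteins in matched amounts, and cells co-ordinate these genes in large part at the step of translation. Many of their messenger RNAs start with a cytosine followed by an unbroken run of pyrimidines, the 5′ terminal oligopyrimidine tract, through which the kinase mTORC1 and the binding protein Larp1 control whether the message is read. Ribosomal protein messages are also among the most often reverse-transcribed in the germ line, so that the mouse genome carries many intronless copies of them, most annotated as processed pseudogenes. A read of 75 bases from the 3′ end of a message, as made here, can fit the gene and several such copies equally well.

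The sequences at the coding end show how far a read can tell these genes apart. Each line below holds the last 75 coding bases before the stop codon, 5′ to 3′, from the GENCODE M21 transcripts of GRCm38, with bases that differ from the gene named first in capitals. The Rpl10 gene lies at chrX:74270812-74273135, and its copy Rpl10-ps3 at chr9:50344201-50344968 on the minus strand. They are shown because Rpl10 had the smallest p of all members in 3 of the IL-21 comparisons.
Rpl10: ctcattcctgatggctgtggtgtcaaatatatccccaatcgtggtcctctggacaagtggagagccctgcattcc
Rpl10-ps3: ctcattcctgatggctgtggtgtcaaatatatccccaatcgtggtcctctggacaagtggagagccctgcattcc
Rpl10l: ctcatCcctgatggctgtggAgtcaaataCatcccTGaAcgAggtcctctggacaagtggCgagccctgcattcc
The copy Rpl10-ps3 has 0 mismatches to Rpl10 over these bases, while the paralog Rpl10l, which is read mainly in the testis, has 8. The next gene, Rps16 at chr7:28350652-28353155, is shown with Rps16-ps2 at chr5:129128077-129128517 because it had the smallest p between libraries numbered 1 and 2.
Rps16: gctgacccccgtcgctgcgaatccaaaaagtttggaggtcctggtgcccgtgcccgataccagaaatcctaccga
Rps16-ps2: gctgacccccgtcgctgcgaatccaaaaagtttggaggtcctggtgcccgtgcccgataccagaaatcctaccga
These too have 0 mismatches. A last set shows paralogs that code for their own proteins, with 3 mismatches between Rpl36a and Rpl36al and 16 between Rps27 and Rps27l.
Rpl36a: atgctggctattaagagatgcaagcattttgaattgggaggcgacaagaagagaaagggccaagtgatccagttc
Rpl36al: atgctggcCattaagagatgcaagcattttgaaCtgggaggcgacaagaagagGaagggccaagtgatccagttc
Rps27: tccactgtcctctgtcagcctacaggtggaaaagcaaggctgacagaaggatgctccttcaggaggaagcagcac
Rps27l: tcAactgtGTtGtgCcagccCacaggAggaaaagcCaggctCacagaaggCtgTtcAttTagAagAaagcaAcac

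Copies were counted as other annotated genes that matched at least 75 bases at 95% identity or more, within 300 bases before to 100 bases after a member's coding end, and that also matched its coding sequence. By this measure 80 of the 84 members had at least 1 copy. There were 649 copies, of which 607 are annotated as processed pseudogenes, 18 as transcribed processed pseudogenes and 15 as protein-coding, and 554 of them held counts. For the median member 62.4% of the 75-base stretches in this window also occur in another annotated gene. All stretches were shared for 4 members, and none for 5, among them Rps3 and Rpl4.

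Over the 8 libraries the copies held 42.7 counts for every 100 in the members, and this ratio lay between 40.5 and 45.3 in each library. The copies of 21 members held more counts than the member itself. Rps29, a small-subunit protein, had 57.8 counts in all against 1136 in its copies, a ratio of 19.6 that was the highest of any member. The same ratio was 16.6 for Rpl10a, 8.82 for Rpl28, 8.12 for Rpl36a, 7.03 for Rpl36, 6.55 for Rpl24, 5.32 for Rps27a, 5.01 for Rps13 and 3.93 for Rpl10. It was between 1.31 and 3.44 for Rpl11, Rpl35, Rps23, Rpl15, Rpl19, Rpl23, Rpl27a, Rps16, Rps6, Rpl21 and Rps18. A value deposited for one of these genes may therefore be only a part of the reads that fit it. How such reads were divided is not given in the sources used here, and how many counts of a copy fit the gene was not tested. At the other end Rps9 had 3734 counts against 9.8 in its copies, and Rps3 and Rps27l had none in copies.

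**Figure D1:**
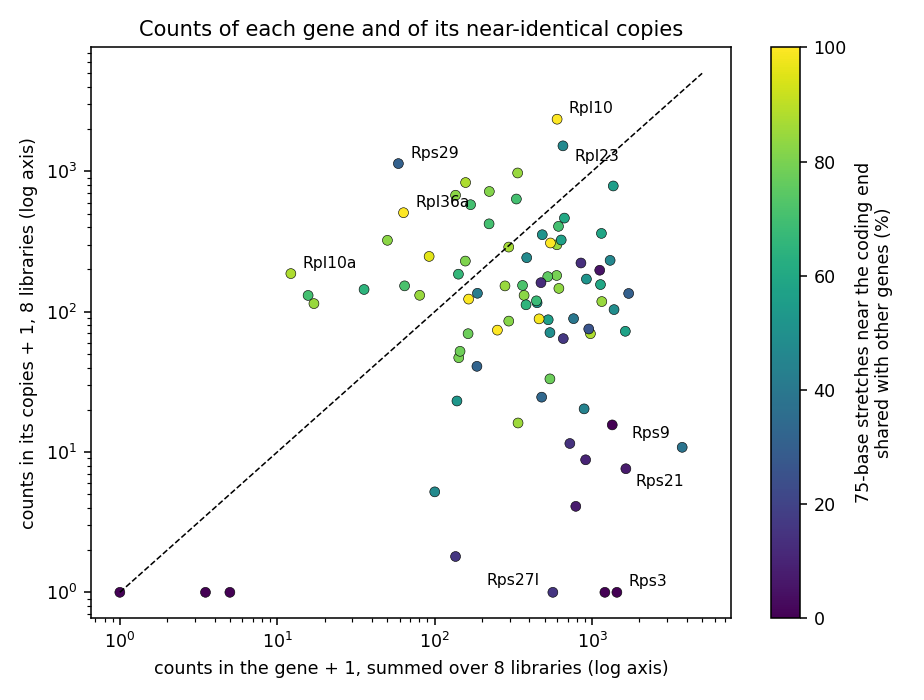
Counts of each of the 84 ribosomal protein genes (x) and of its annotated near-identical copies (y), summed over 8 libraries with 1 added, on log axes; colour gives the percentage of 75-base stretches near the coding end shared with other genes. The 21 genes above the dashed line of equal counts, among them Rps29 and Rpl10, have more counts in copies than in the gene, whereas Rps3 and Rps27l have none in copies.

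The start of the message was examined in the RefSeq promoter table of GRCm38.p6, which matched 64 of the 84 members. Counted on the transcript strand, 29 of the 64 (45.3%) had a cytosine followed by at least 4 more pyrimidines that began within 5 bases of an annotated start. The same was true of 3597 of all 16504 protein-coding genes in the table (21.8%), 1 of 6 elongation factors, 5 of 23 initiation factors and 17 of 69 mitochondrial ribosomal proteins. A match describes these letters only. Windows of 30 bases, from 10 before the annotated start onward and with the run in capitals, are given for Rps9 (the member with the highest level), for 4 of the members called between library numbers, and for Rpl10. Of the called members named below, Rps21, Rps26 and Rps15a had a start with such a run, although a further start of Rps21 had none. Rps16, with the smallest p, Rpl23 and Rps19 at each of its 3 starts had none, and Rpl30 was not in the table.
Rps16, chr7:28350679-28350708, plus strand: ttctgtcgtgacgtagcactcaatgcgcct
Rps9, chr7:3704031-3704060, plus strand: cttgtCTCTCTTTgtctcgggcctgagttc
Rps21, chr2:180257369-180257398, plus strand: aggacccgCCCTCCTgcccaatagtgctgc
Rps26, chr10:128626487-128626516, minus strand: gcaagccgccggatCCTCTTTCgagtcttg
Rps15a, chr7:118116128-118116157, minus strand: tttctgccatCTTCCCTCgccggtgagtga
Rpl10, chrX:74270806-74270835, plus strand: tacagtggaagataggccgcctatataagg

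The tables totalled 224329 to 483593 counts per library, with the deepest libraries being both Ly6Clo libraries numbered 2 and the shallowest being Ly6Chi with IL-21 number 2. Of 10 macrophage markers 9 had counts, among them Csf1r and Adgre1, while Itgam was listed at 0 in every library. Their summed level was 7990 to 12500 CPM (counts in proportion to the library total after TMM adjustment) in Ly6Chi and 8270 to 10100 in Ly6Clo. Summed levels of neutrophil markers were 66.4 to 184 CPM, with Ly6g at 0, those of T and NK cell markers 0.0 to 24.8, of B cell markers 0.0 to 4.0, of erythroid and platelet markers 0.0 to 34.5, of fibroblast markers 15.1 to 160, of endothelial markers 66.4 to 348 and of cardiomyocyte markers 0.0 to 79.9.

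The 84 ribosomal protein genes together took a small share of the counts, and that share differed between libraries in a regular way. In Ly6Chi cells without IL-21 they held 1.97% of the counts in library 1 and 1.57% in library 2, and with IL-21 1.88% and 1.38%. In Ly6Clo cells the shares were 2.2% and 2.0% without IL-21, and 2.11% and 1.85% with it. Library 2 was below library 1 in all 4 groups, Ly6Clo was above Ly6Chi in all 4 pairs of the same culture and number, and the culture with IL-21 was below the one without in all 4 pairs of the same subset and number.

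The steps differed in size. Library 2 held 0.731 to 0.907 times the share of library 1, Ly6Clo 1.12 to 1.34 times that of Ly6Chi, and the culture with IL-21 0.876 to 0.96 times that without. The group means were 1.77% ± 0.281 (SD, n = 2) and 1.63% ± 0.358 for Ly6Chi without and with IL-21, and 2.1% ± 0.145 and 1.98% ± 0.189 for Ly6Clo. The difference between cultures was therefore smaller than the SD between the libraries of a group. That SD includes the step from library 1 to library 2, which a pair of the same number leaves out. The values of the subsets overlapped, since Ly6Chi number 1 libraries lay above the Ly6Clo library with IL-21 number 2. The 95% Wilson intervals, which cover counting error only, were 1.33 to 1.43% in the lowest library and 2.15 to 2.26% in the highest. They were apart for every step between library numbers and between subsets, and for the IL-21 step in libraries 2. In libraries 1 the intervals of the cultures overlapped. Without and with IL-21 they were 1.92 to 2.02% and 1.84 to 1.93% in Ly6Chi. In Ly6Clo they were 2.15 to 2.26% and 2.06 to 2.17%. The large and the small subunit took nearly equal parts, 0.689 to 1.12% and 0.688 to 1.08%. With their copies the members took 1.98 to 3.2% of counts, and of protein-coding counts alone they took 1.53 to 2.5%. In bulk RNA, fewer cells of a type and less of a message in each cell cannot be told apart.

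**Figure D2:**
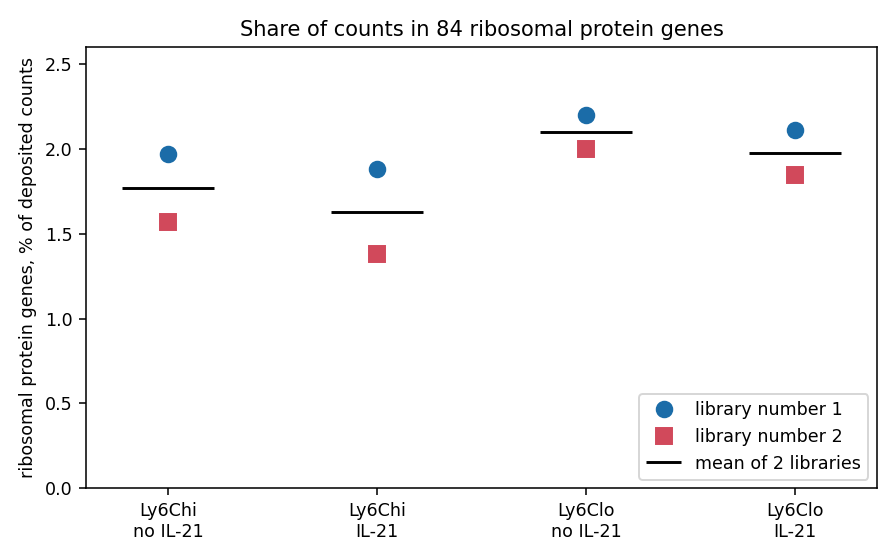
Share of deposited counts (%, y) in the 84 ribosomal protein genes in each library, by group (x); circles are libraries numbered 1, squares libraries numbered 2, and bars the mean of 2. The share runs from 1.38% in Ly6Chi with IL-21 number 2 to 2.2% in Ly6Clo without IL-21 number 1, and in each group the square lies below the circle.

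Levels differed widely between members. Rps9, a small-subunit protein at the channel where the message enters, was the highest with a mean of 1620 CPM over the 8 libraries and a range of 1350 to 1820 CPM. Also among the highest were Rps24 (mean 715 CPM), Rps21 (699) and Rps3 (618), all of the small subunit. The lowest of those tested were Rpl36a (25.1 CPM), Rps29 (25.9), Rpl19 (28.3), Rpl15 (38.6) and Rpl22l1 (42.0), of which all but Rpl22l1 had more counts in copies than in the gene. The kit takes about 1 tag per message, so these CPM values are not scaled by length. Of the 9 members not tested, Rps6, the ribosomal protein phosphorylated by the S6 kinases, was the most abundant, with 3.5 to 23.8 counts per library and 129.9 counts in its copies. Rpl10l, which replaces Rpl10 in male germ cells, had 0 counts in every library, where 3 counts correspond to 6.58 to 14.9 CPM. Rpl3l, known from heart and skeletal muscle, had no more than 1.0 count in any library, and Rpl39l, known from the testis, no more than 2.0.

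The first comparison asked how IL-21 changed these genes in cultured macrophages, and no ribosomal protein gene passed the test by group means alone. Averaged over both subsets, 54 of 75 members were lower with IL-21, with a median log2 fold change of -0.1 (0.933-fold) against -0.01 for all genes tested, of which 51.1% were lower. Rpl19 and Rps29 passed the filter on low counts only through unstimulated libraries. They are no support for a count of members lower with IL-21, here or within a subset. By edgeR's quasi-likelihood test 0 of 75 were called at an adjusted p under 0.05 (Benjamini-Hochberg over all genes), beside 0.171% of all genes. At an unadjusted p under 0.05 there was 1 member, beside 5.33% of all genes, and DESeq2 and limma-voom also called 0. When the fit also held the replicate number as a block (the blocked fit), the count was again 0, beside 1.14% of all genes. In the fit without the block the typical member had a standard error of 0.2, larger than that median. This error includes the step from library 1 to library 2. Across the 4 pairs of the same subset and number 18 members were lower with IL-21 in all 4 (24.0%, against 8.96% of all genes) and 1 member, Rps9, in none. For 1 member, Rps18, every library with IL-21 (51.8 to 59.6 CPM) lay below every library without it (61 to 72.4 CPM), beside 1.52% of all genes, and for 0 members above, beside 2.19%. The averaged log2 fold change of Rps18 was -0.3 (SE 0.24, edgeR adjusted p 1.0). The median of all members was -0.22 without the Ly6Chi IL-21 library 1, -0.15 without the unstimulated Ly6Chi library 2, and -0.01 to -0.05 without the unstimulated Ly6Chi library 1, the Ly6Chi IL-21 library 2, the unstimulated Ly6Clo library 1 or the Ly6Clo IL-21 library 2.

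Members nearest to the threshold came from both subunits. Rpl32, a large-subunit protein, was at 369 and 290 CPM in Ly6Chi libraries 1 and 2 without IL-21 and at 256 and 189 CPM with it. In Ly6Clo it was at 482 and 399 CPM without and at 388 and 296 CPM with IL-21. It was lower with IL-21 in every pair of the same number, though libraries of the cultures overlapped between subsets. Its averaged log2 fold change was -0.46 (SE 0.18, edgeR adjusted p 0.803), which did not pass. For Rpl4, which lines the peptide exit tunnel, that value was -0.34 (SE 0.17). Rps29 was at -0.98 (SE 0.6), but it passed the filter on low counts only through the unstimulated libraries numbered 1 (57.4 and 49.8 CPM), and without that of Ly6Chi the value was 0.02. Upward, the smallest p belonged to Rps15 (0.53, SE 0.29), Rpl36al (0.17, SE 0.18) and Rps4x (0.22, SE 0.28), and none of these 5 passed (edgeR adjusted p 0.962 to 1.0). Without the Ly6Chi IL-21 library 1 the value of Rps15 was 0.07 and that of Rps4x -0.2.

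Within Ly6Chi cells 51 of 75 members were lower with IL-21 and the median log2 fold change was -0.1, against 0.0 for all genes. By edgeR 0 members were called, beside 0.019% of all genes, and 3 had an unadjusted p under 0.05, beside 3.52% of all genes. DESeq2 and limma-voom called 0, as did edgeR in the blocked fit (0.266% of all genes). The median rested on single libraries: it was -0.35 without the IL-21 library 1, -0.25 without the unstimulated library 2, 0.08 without the unstimulated library 1 and 0.07 without the IL-21 library 2. Within Ly6Clo cells 53 members were lower, the median was -0.07 against -0.01, and again 0 were called by edgeR (0.133% of all genes), DESeq2 or limma-voom. In Ly6Clo 1 member, Rpl10, had an unadjusted p under 0.05, beside 3.52% of all genes. In the blocked fit edgeR called that 1 member, beside 0.552% of all genes. That median was -0.17 without the Ly6Clo IL-21 library 1, -0.12 without the unstimulated library 2, 0.03 without the unstimulated library 1 and -0.02 without the IL-21 library 2.

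In Ly6Chi the stalk gene Rplp1 was at 578 and 522 CPM without IL-21 and at 422 and 362 CPM with it. Neither library with IL-21 reached the level of those without, and the log2 fold change was -0.49 (SE 0.22, edgeR adjusted p 1.0). In Ly6Clo the same gene was at 702 and 647 CPM without and 715 and 628 CPM with IL-21, and the libraries overlapped. Rplp1 forms the flexible stalk of the large subunit with Rplp2 and Rplp0, where elongation factors dock. Rplp2 (-0.14, SE 0.26) and Rplp0 (0.04, SE 0.28) moved by less than their standard errors in Ly6Chi. Other members with small p in Ly6Chi were Rpl32 (-0.55, SE 0.26), Rps24 (-0.5, SE 0.25), Rps15 (0.97, SE 0.45) and Rps27a (0.65, SE 0.4), and in Ly6Clo Rps7 (-0.79, SE 0.4), Rps23 (-0.47, SE 0.28), Rpl39 (0.47, SE 0.3), Rpl36al (0.32, SE 0.24) and Rpl31 (0.28, SE 0.23). None of these passed. Over the fits that left out 1 library the value lay between 0.04 (without the Ly6Chi IL-21 library 1) and 1.46 for Rps15, between -0.93 and -0.19 (without the Ly6Chi IL-21 libraries 1 and 2) for Rps24, between 0.3 and 1.17 (without the unstimulated Ly6Chi libraries 1 and 2) for Rps27a, and between -0.8 and -0.35 for Rpl32. In Ly6Clo it lay between -1.25 and -0.29 (without the unstimulated libraries 2 and 1) for Rps7, between -0.69 and -0.25 for Rps23 and between 0.1 and 0.54 for Rpl36al.

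**Figure D3:**
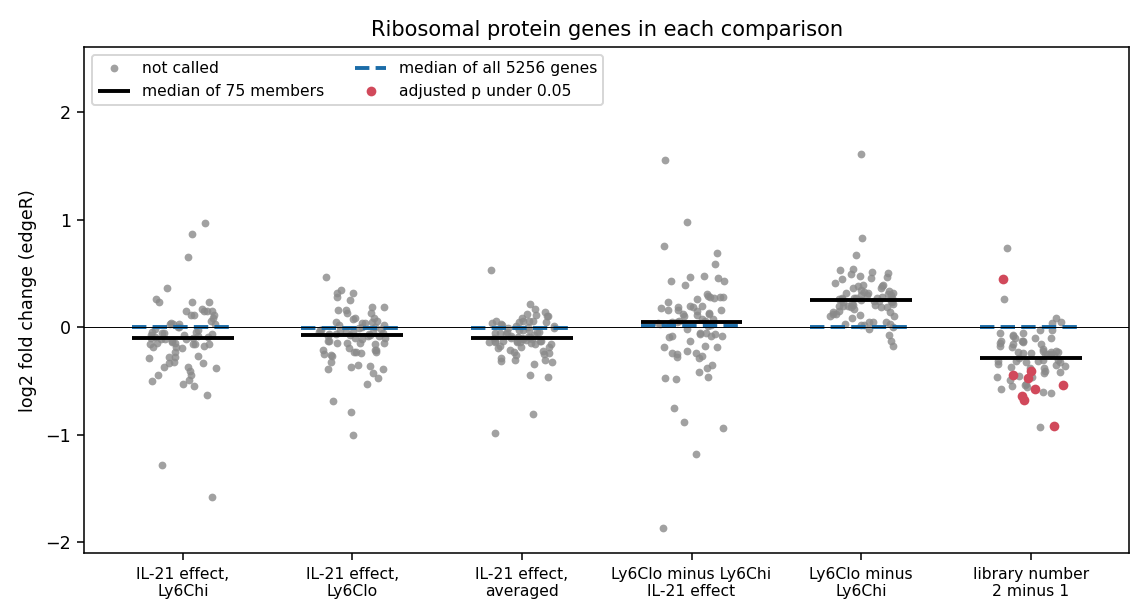
edgeR log2 fold change (y) of each of the 75 tested ribosomal protein genes in 6 comparisons (x); points are genes, red where the adjusted p is under 0.05, the solid bar is their median and the dashed bar the median of all genes tested. Members centre near 0 for IL-21, above 0 for Ly6Clo against Ly6Chi (median 0.25) and below 0 for library number 2 against 1 (median -0.29).

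Rpl10, a large-subunit protein that joins late in assembly and is needed for the subunits to unite, gave the smallest p of any member in both subsets, in opposite directions. In Ly6Chi it was at 201 and 179 CPM without IL-21 and at 354 and 343 CPM with it. In Ly6Clo it was at 316 and 347 CPM without IL-21 and at 196 and 140 CPM with it. In each subset the libraries of the cultures were apart, with IL-21 high in Ly6Chi and low in Ly6Clo. The log2 fold change was 0.87 (SE 0.25, edgeR adjusted p 1.0) in Ly6Chi and -1.0 (SE 0.24, adjusted p 0.396) in Ly6Clo. The difference between these effects was -1.87 (SE 0.34, edgeR adjusted p 0.394), which did not pass. The blocked fit gave calls for Ly6Clo (-1.03, SE 0.2, edgeR adjusted p 0.00777) and the difference (-1.9, SE 0.3, adjusted p 0.00429), but not for Ly6Chi (0.87, SE 0.22, adjusted p 0.107).

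The reads that fit Rpl10 may be divided between it and its copies, chiefly Rpl10-ps3, whose coding end is identical. Over all libraries Rpl10 held 598.3 counts and Rpl10-ps3 2292 counts. In Ly6Chi the sum of Rpl10 and its 11 copies was 1360 and 1080 CPM without IL-21 and 1510 and 1230 CPM with it. In Ly6Clo the sum was 1550 and 1200 CPM without and 1320 and 1080 CPM with IL-21. The summed values overlapped between cultures in both subsets, and libraries numbered 2 were the lower in each group. The copies alone were at 1160 and 904 CPM in Ly6Chi without IL-21 and at 1150 and 889 CPM with it. In Ly6Clo they were at 1240 and 849 CPM without and 1120 and 939 CPM with IL-21. Rpl10 thus held 14.8 and 16.5% of the sum in Ly6Chi without IL-21 and 23.5 and 27.8% with it. In Ly6Clo it held 20.3 and 29% without and 14.9 and 13.0% with IL-21. Whether the gene's level or the division of its reads changed was not tested.

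With the copies' counts added to the gene, the IL-21 effect on Rpl10 was 0.16 (SE 0.23, edgeR adjusted p 1.0) in Ly6Chi and -0.21 (SE 0.23, adjusted p 1.0) in Ly6Clo, and the difference was -0.37 (SE 0.33, adjusted p 1.0). In the blocked fit with copies added these were 0.16 (SE 0.14), -0.2 (SE 0.14) and -0.36 (SE 0.2), with edgeR adjusted p of 0.885, 0.838 and 1.0. The copy Rpl10-ps3, fitted alone, had log2 fold changes of -0.02 (SE 0.25) and -0.02 (SE 0.24). Since the copies hold most of the sum, a change in Rpl10 alone gives a smaller log2 change in the sum.

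**Figure D4:**
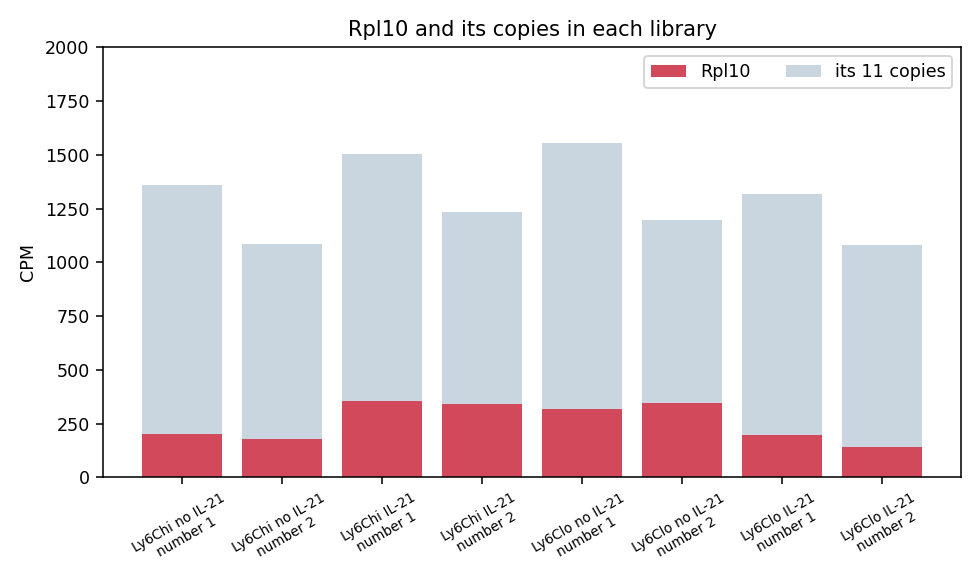
CPM (y) of Rpl10 (red) and of its 11 copies (grey, stacked) in each library (x). The red part is larger with IL-21 in Ly6Chi (354 and 343 against 201 and 179 CPM) and smaller with IL-21 in Ly6Clo (196 and 140 against 316 and 347 CPM), while the stacked totals run from 1080 to 1550 CPM.

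For the difference of the IL-21 effects between subsets, 44 of 75 members had a positive value, and the median was 0.05, against 0.01 for all genes. A positive value means a log2 change that was more positive, or less negative, in Ly6Clo than in Ly6Chi. By edgeR 0 members were called and 0.0% of all genes, and DESeq2 and limma-voom called 0 members. The blocked fit called 1, Rpl10, beside 0.019% of all genes. At an unadjusted p under 0.05 there were 2, Rpl10 and Rps27a, beside 1.75% of all genes. Rps27a, made as a fusion of ubiquitin with a small-subunit protein, was at 32.8 and 61 CPM in Ly6Chi without IL-21, at 86.6 and 59.6 CPM with it, and in Ly6Clo at 95.5 and 79 CPM without and 56 and 61.6 CPM with it. Its difference was -1.18 (SE 0.53, edgeR adjusted p 1.0), and its copies held 831.7 counts against 156.2 in the gene. Others with small p were Rps7 (-0.94, SE 0.6), Rpl39 (0.75, SE 0.45), Rps12 (0.69, SE 0.44) and Rplp1 (0.48, SE 0.31), none of which passed. Leaving out 1 library gave 0.36 to 1.35 for Rpl39, 0.3 to 1.32 for Rps12 and -1.55 to -0.44 for Rps7. The median had no stable sign: it was -0.17 and -0.15 without the Ly6Chi unstimulated library 1 and the Ly6Chi IL-21 library 2, -0.07 and -0.05 without the Ly6Clo unstimulated library 2 and the Ly6Clo IL-21 library 1, 0.36 without the Ly6Chi IL-21 library 1, and 0.13 to 0.2 without each of the other 3.

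The second comparison, Ly6Clo against Ly6Chi averaged over both cultures, gave the most uniform direction among the study's groups. Of 75 members 71 were higher in Ly6Clo (94.7%, against 50.4% of all genes), with a median log2 fold change of 0.25 (1.19-fold) against 0.0. The quartiles were 0.14 and 0.35. Rpl36a passed the filter on low counts only through Ly6Clo libraries, so it is no support for any count of members higher in Ly6Clo. By edgeR 0 members were called, beside 0.19% of all genes (0.0951% higher and 0.0951% lower), and 7 had an unadjusted p under 0.05, beside 7.78% of all genes. DESeq2 and limma-voom also called 0. In the blocked fit edgeR called 4 members, beside 2.51% of all genes: Rplp1, Rps21, Rpl32 and Rps14, all higher in Ly6Clo. In all 4 pairs of the same culture and number 29 members were higher in Ly6Clo (38.7%, against 10.9% of all genes). For 7 members every Ly6Clo library lay above every Ly6Chi library, beside 2.64% of all genes, and for 0 members the reverse held, beside 2.74%.

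The direction was shared by both subunits, with 42 of 44 large-subunit and 29 of 31 small-subunit members higher and medians of 0.25 and 0.26. It was seen at both ends of the range of sharing with copies. Of 13 tested members with under 20% of their 75-base stretches shared, 13 were higher, with a median of 0.3, and of 21 members with 80% or more shared, 19 were higher, with a median of 0.24. Taken within one library number, the median was 0.14 without IL-21 and 0.15 with it among libraries 1, and 0.3 and 0.36 among libraries 2. Leaving out the Ly6Chi IL-21 library 2, the shallowest and the lowest in these genes, gave 0.15, and leaving out the unstimulated Ly6Chi library 2 gave 0.17. Leaving out the IL-21 Ly6Chi library 1 gave 0.39 and the unstimulated one 0.36. Both Ly6Clo libraries numbered 2 were the deepest, and the part of depth in this result was not tested.

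Rplp1 of the stalk had the smallest p of the members. Its 4 Ly6Clo libraries, at 628 to 715 CPM, all lay above its 4 Ly6Chi libraries, at 362 to 578 CPM. The log2 fold change was 0.53 (SE 0.15, edgeR adjusted p 0.258), and in the blocked fit 0.54 (SE 0.11, adjusted p 0.00654). Its stalk partner Rplp2 was likewise apart, at 631 to 710 CPM in Ly6Clo and 362 to 595 CPM in Ly6Chi (0.38, SE 0.18, adjusted p 0.637). Rplp0, which anchors the stalk, was at 193 to 299 CPM and 168 to 205 CPM, and the ranges overlapped (0.24, SE 0.19).

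Rpl11 and Rpl5 join the 5S ribosomal RNA in a particle that, when ribosome assembly fails, binds Mdm2 and so stabilises p53. Rpl11 was at 104, 98.8, 83.9 and 71.5 CPM in Ly6Clo and at 32.8, 53.4, 52.7 and 59.6 CPM in Ly6Chi. The subsets did not overlap, and the log2 fold change was 0.83 (SE 0.25, edgeR adjusted p 0.318). With its copies' counts added it was 0.3 (SE 0.16, adjusted p 0.671). Rpl5 was at 118 to 158 CPM in Ly6Clo and 99.2 to 160 CPM in Ly6Chi, with a log2 fold change of 0.03 (SE 0.22).

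Rpl36a was at 32 to 48 CPM in Ly6Clo and at 0 to 18.8 CPM in Ly6Chi, where 1 library had no count. It passed the filter on low counts only through 2 Ly6Clo libraries, so it had to be higher there. It is 1 of the 7 members with an unadjusted p under 0.05 and 1 of the 7 without overlap, and is no support for either count. The same holds for the counts above of members higher in Ly6Clo, over all members, by subunit, by sharing and by pairs. Its fitted log2 fold change was 1.61 (SE 0.56, adjusted p 0.49 by edgeR), 3.96 without the Ly6Chi IL-21 library 1, 1.19 without the Ly6Chi IL-21 library 2 and 0.5 (SE 0.34) with copies added. Rpl32 (0.51, SE 0.18), Rps21 (0.49, SE 0.19), Rps14 (0.47, SE 0.18) and Rpl14 (0.36, SE 0.16) were the other members with an unadjusted p under 0.05, and did not pass (edgeR adjusted p 0.496 to 0.612). In the blocked fit Rpl32 (0.52, SE 0.13), Rps21 (0.5, SE 0.11) and Rps14 (0.48, SE 0.13) passed, with edgeR adjusted p of 0.0263, 0.00839 and 0.0386. With copies added to that fit the same 4 members, these and Rplp1, were called (edgeR adjusted p 0.00873 to 0.029). Rps14 and Rps21 belong to the small subunit, and both were higher in Ly6Clo in all 4 pairs. The 4 members with lower values in Ly6Clo were Rpl10 (-0.13, SE 0.17), Rps13 (-0.17, SE 0.26), Rps4x (-0.07, SE 0.28) and Rpl3 (-0.02, SE 0.28), all within their standard error.

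The third comparison set libraries numbered 2 against those numbered 1, with the 4 groups held fixed, and here members passed the test. Of 75 members 69 were lower in libraries 2 (92.0%, against 50.4% of all genes), with a median log2 fold change of -0.29 (0.816-fold) against 0 for all genes. Rpl19, Rps29 and Rpl36a passed the filter on low counts only through libraries numbered 1. They are no support for any count of members lower in libraries 2, here or below. By edgeR 8 members fell and 1 rose at an adjusted p under 0.05. Among all genes tested 3.6% fell and 4.6% rose, 8.2% in all. At an unadjusted p under 0.05 there were 29 lower and 2 higher members, beside 21.6% of all genes. In all 4 groups 40 members were lower in library 2 (53.3%, against 14.0% of all genes), and for 13 members every library 2 lay below every library 1, beside 5.23% of all genes, and for 0 members above, beside 5.84%.

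Rps16, a small-subunit protein, had the smallest p. It was at 127 CPM in library 1 and 68.6 CPM in library 2 of Ly6Chi without IL-21, and at 117 and 59.6 CPM with IL-21. In Ly6Clo it was at 133 and 72.4 CPM without and at 140 and 71.5 CPM with IL-21. All libraries 2 lay below all libraries 1, and Rps16 fell by 0.92 on the log2 scale (SE 0.21, edgeR adjusted p 0.00488). With the counts of its copies added it fell by 0.61 (SE 0.14, edgeR adjusted p 0.00492), and it passed in all 8 fits that left out a library.

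Others that fell were Rps19 (-0.68, SE 0.18), Rpl30 (-0.57, SE 0.18), Rpl23 (-0.54, SE 0.15), Rps26 (-0.47, SE 0.12) and Rps21 (-0.44, SE 0.11), with edgeR adjusted p from 0.0115 to 0.0425. Of those named here all but Rpl30 and Rpl23 belong to the small subunit, among them Rps19 and Rps26, which are mutated in Diamond-Blackfan anaemia. Rps19 was at 275 and 130 CPM in Ly6Chi without IL-21, 267 and 89.4 CPM with it, 332 and 237 CPM in Ly6Clo without and 232 and 219 CPM with it. Each library 2 was the lower of its pair, and the gap was widest in Ly6Chi.

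Rps15a was the only member that rose, by 0.45 (SE 0.14, edgeR adjusted p 0.0445). It was at 332 and 313 CPM in Ly6Chi without IL-21, at 313 and 417 CPM with it, at 307 and 498 CPM in Ly6Clo without and at 320 and 513 CPM with it. In 3 of 4 groups library 2 was the higher, and the unstimulated Ly6Chi pair went the other way. Rpl7l1 (0.74, SE 0.28, edgeR adjusted p 0.11) and Rps27l (0.26, SE 0.15, adjusted p 0.326) were higher in library 2 in all 4 groups and did not pass. Both are paralogs of other members. The copies of Rpl7l1 held 0.8 counts, and Rps27l had no copy by the measure used here.

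These calls depended on the tool and on single libraries. DESeq2 called 0 members, with 10 at an unadjusted p under 0.05, and limma-voom called 9. The count was 1 without the unstimulated Ly6Clo library 1 and 2 without the unstimulated Ly6Clo library 2. It was 4 without the IL-21 Ly6Chi library 1 or either Ly6Clo library with IL-21, and 5 without the IL-21 Ly6Chi library 2. The median stayed between -0.33 and -0.23 in these fits. It was -0.24 over members with under 20% of stretches shared (11 of 13 lower) and -0.3 over those with 80% or more (21 of 21 lower). With copies added to their member 15 members fell and 1 rose. The share of all genes called by these other tools and fits is not given here. Their counts of members therefore have no background beside them.

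Other measures moved with the library number. Within groups the median member difference was -0.33 and -0.51 in Ly6Chi without and with IL-21 and -0.18 and -0.2 in Ly6Clo, on the log2(CPM + 1) scale. Genes annotated over ribosomal RNA repeats (CT010467.1, Gm42418 and AY036118) took 3.46 to 3.94% of counts in libraries 1 and 2.6 to 3.34% in libraries 2. Nuclear copies of mitochondrial genes (Gm28661, Gm10925, Gm28437 and Gm29216) took 1.88 to 2.39% and 1.12 to 1.44%. The summed level of macrophage markers was 9800 to 12500 CPM in libraries 1 and 7990 to 8660 CPM in libraries 2. Taken gene by gene, 5 of the 9 tested macrophage markers were higher in libraries 2 and 4 lower, with a median log2 fold change of 0.0. By edgeR 1 was called higher and 3 lower, so the sum does not describe the markers as a set. Summed endothelial markers were at 66.4 to 143 and 195 to 348 CPM. The part of each of these in the difference of the ribosomal protein genes was not tested.

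**Figure D5:**
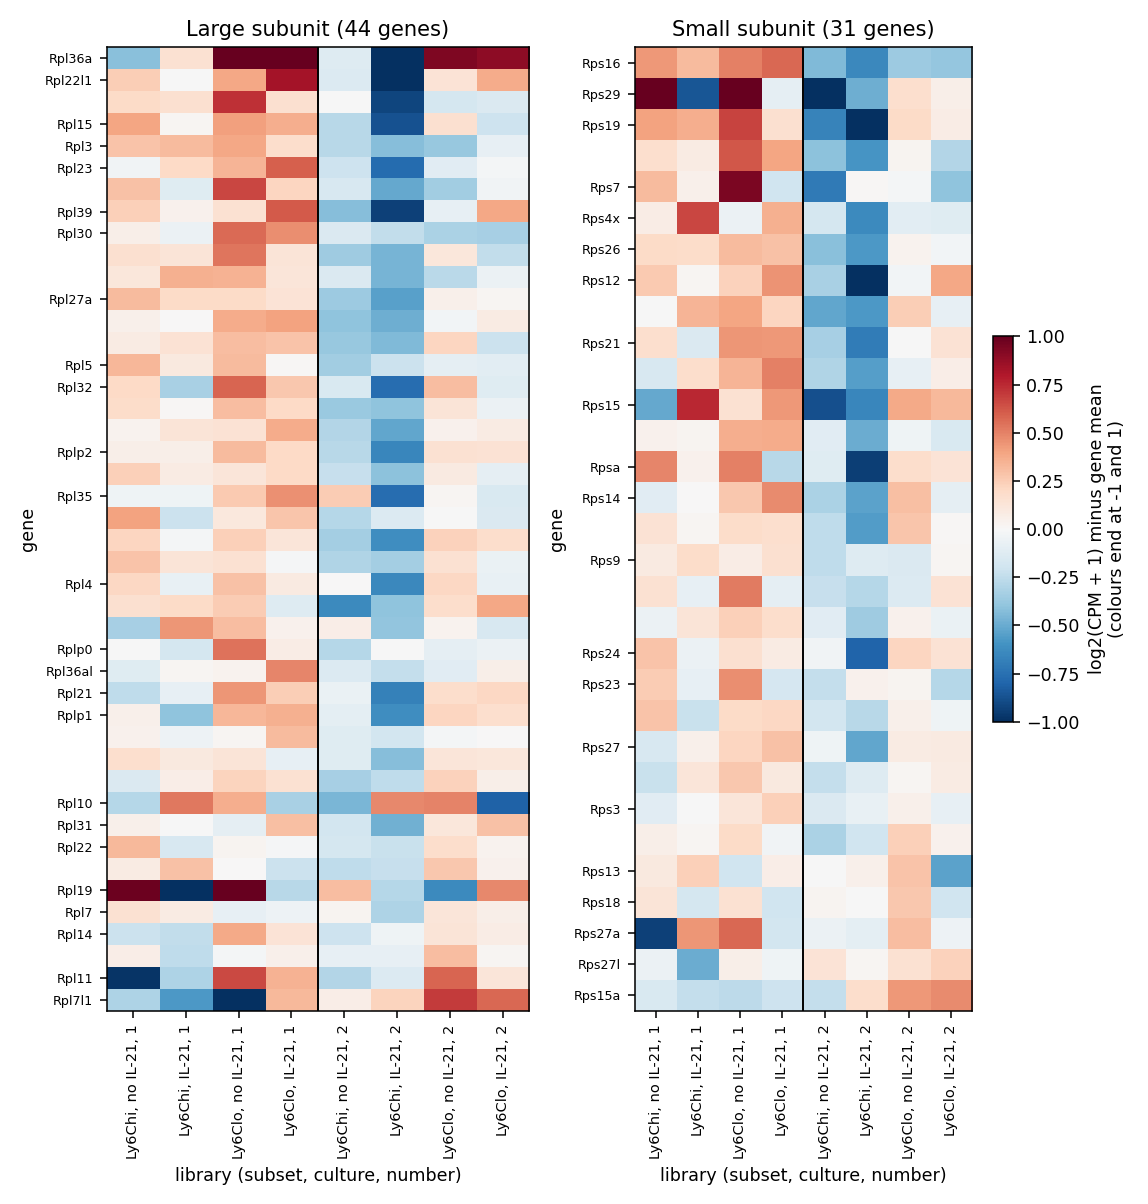
Level of each tested ribosomal protein gene (rows; 44 large-subunit left, 31 small-subunit right, ordered by the difference between library numbers) in 8 libraries (columns; numbers 1 left and 2 right of the line), as log2(CPM + 1) minus the gene's mean. Genes named in the text are labelled. Columns of libraries 2 are mostly blue in Ly6Chi, most of all with IL-21, and Rps15a and Rpl7l1 at the foot run the other way.

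Paralog pairs were compared with each other over the same libraries, as levels in CPM. Rpl22, an RNA-binding large-subunit protein, was at 328 to 480 CPM and its paralog Rpl22l1 at 9.93 to 68 CPM, so the ranges were far apart. Rps27 (134 to 236 CPM) and Rps27l (166 to 276 CPM), a p53-inducible paralog, overlapped. Rpl7 was at 184 to 254 CPM and Rpl7l1 at 24.9 to 83.4 CPM. Rpl36al was at 189 to 312 CPM and Rpl36a at 0 to 48 CPM, with 506.7 counts in the copies of Rpl36a against 62.4 in the gene. Rps4l is annotated as a transcribed pseudogene and is no member, and Rps4x was at 49.6 to 124 CPM. Between Ly6Clo and Ly6Chi the log2 difference was 0.67 for Rpl22l1 (SE 0.35) and 0.11 for Rpl22 (SE 0.16), and neither passed (edgeR adjusted p 0.663 and 0.933). Rpsa, which also serves as a laminin receptor, was at 29.8 to 83 CPM and was lower with IL-21 in all 4 pairs (-0.44, SE 0.28, edgeR adjusted p 1.0).

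Between the subsets, lists of genes that work with the ribosome had smaller median shifts than the members (0.25). In Ly6Clo against Ly6Chi 39 of 50 tested mitochondrial ribosomal protein genes, whose products form the separate ribosome of mitochondria, were higher, with a median of 0.07. Of 16 ribosome biogenesis genes 12 were higher (median 0.11), of 27 initiation factors 15 (0.0), of 7 elongation factors 5 (0.09) and of 7 genes of mTORC1 and the S6 kinases 3 (-0.05). Fau and Rack1, genes of a ribosomal and a ribosome-bound protein whose symbols fall outside the rule, had values of -0.19 (SE 0.32) and 0.23 (SE 0.19). Without a block none of these lists and genes had a call in that comparison, nor for IL-21 in either subset, averaged or as a difference. For IL-21 the list medians were not all smaller. In Ly6Clo they were -0.32 for ribosome biogenesis genes, -0.18 for elongation factors, -0.17 for mTORC1 genes and -0.12 for initiation factors. Those of the mitochondrial ribosomal proteins and of the members were -0.04 and -0.07. In Ly6Chi elongation factors were at -0.2 and initiation factors at 0.12, against -0.1 for the members. Mitochondrial ribosomal proteins were at -0.08 there, and ribosome biogenesis and mTORC1 genes at -0.01. Averaged over subsets, Eef1a1, which brings aminoacyl-tRNA to the ribosome, had an IL-21 effect of 0.02 (SE 0.17) and Tpt1, a message with a pyrimidine tract of its own, of -0.14 (SE 0.18). For Fau that effect was -0.04 (SE 0.32).

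Between library numbers some of these genes did pass. All 7 elongation factors were lower in libraries 2 (median -0.25), and 2 fell: Eef2, the translocation factor (-0.55, SE 0.12, edgeR adjusted p 0.00425), and Eef1a1 (-0.35, SE 0.11, adjusted p 0.0425). Pabpc1, the poly(A)-binding protein listed with the initiation factors, fell by 0.52 (SE 0.12, edgeR adjusted p 0.00672), and Rack1 fell by 0.43 (SE 0.11, edgeR adjusted p 0.0164). The medians of the initiation factors (0.01), ribosome biogenesis genes (0.04), mitochondrial ribosomal proteins (0.06) and mTORC1 genes (0.03) were close to that of all genes, and none of the last 3 lists had a call.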

How the data were processed

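For 8 libraries, per the labels' protocols, a QuantSeq 3′ kit with molecular identifiers was used and single reads of 75 bases were taken. The authors deposited expected counts (estimated counts) per gene, not normalized and called raw per the file headers, although 53.3 to 59.7% of the values above 0 were not whole (tolerance 0.001). Build mm10 and DESeq2, the latter with no version, come from the submitters' processing notes. Aligner, counting program, and any use of identifiers or strand: not given in the sources used here.

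The planned test was for whole counts, so values were rounded. Of 53342 identifiers 53237 matched GENCODE M21. Genes were kept by filterByExpr (minimum count 10, minimum total 15) and scaled by TMM. The model in edgeR 4.0.16 (R 4.3.3, limma 3.58.1) had 4 group means, with 4 residual and a median of 10.6 prior degrees of freedom. Library numbers were compared by adding that number to the model. Tests were robust quasi-likelihood F tests, with Benjamini-Hochberg adjustment over 5256 genes. DESeq2 1.42.0, limma-voom, other scalings and filters, copies added to members, a replicate block and leaving out each library were alternatives. A share of protein-coding counts, and the block together with copies added, were chosen after the data were seen. Deviations of same-numbered libraries from their group means correlated across genes at r of 0.234 to 0.412 over the 6 pairs of groups. The numbers were therefore taken to pair the libraries in the matched pairs and the blocked fit, but not in the main fit. The spread of the main fit thus includes the step between library numbers. Its common biological coefficient of variation was 0.201, against 0.108 with the number in the model. The labels name no shared animal or day. The fit was tested on simulated data. Copies were found with blastn 2.17.0, on annotated transcripts only.

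The members and lists were chosen with earlier results of these data known. Named genes were all called members (up to 10 per direction) or, below 3, those with the smallest p, the 5 highest and lowest, Rpl10, paralog pairs, the stalk, Rpl5, Rpl11, Rpsa, members with more counts in copies, and up to 3 genes per other list, of which those most relevant are given and some are not reported here. Promoter windows are from RefSeq. Depth limits the precision: 3 counts equal 6.58 to 14.9 CPM per library.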

Additional observations from a re-analysis of the deposited data

Results flagged for a closer look

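In a fit that holds the replicate number as a block, IL-21's effect on Rpl10 differed between the subsets by the interaction term, with a log2 difference (Ly6Clo minus Ly6Chi) of -1.9 (SE 0.3, edgeR adjusted p 0.00429). Without the block it was -1.87 (adjusted p 0.394), and with the copies' counts added it was -0.37 without and -0.36 with the block (adjusted p 1.0). All 4 pairs of the same number had the direction of their subset, with log2 ratios of IL-21 to no IL-21 of 0.82 and 0.93 in Ly6Chi and -0.69 and -1.3 in Ly6Clo. For the sum of Rpl10 and its copies these ratios were 0.15 and 0.19, and -0.24 and -0.15.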

How the results depend on the processing

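Of the recomputed counts, medians and shares, 218 stayed within the spread between replicates or 1.5 times the count and 18 did not. With the replicate number as a block, 1 member (Rpl10) was called for IL-21 in Ly6Clo (-1.03, adjusted p 0.00777), 1 (Rpl10) for the difference, and 4 in Ly6Clo against Ly6Chi, all higher: Rplp1, Rps21, Rpl32 and Rps14 (adjusted p 0.00654 to 0.0386). The block changed no other call of a member. With the block and copies added, 4 were called in Ly6Clo against Ly6Chi and 0 in the other comparisons. With no filter on low counts Rpl10 was the 1 member called for the difference. Between library numbers DESeq2 called 0 and adding copies gave 16, and the share of all genes called in these fits is not given here. The share of counts, 1.87% on average, was 2.67% with copies. Leaving out 1 library gave 1 to 7 members called between library numbers, and medians of -0.35 to 0.08 for IL-21 in Ly6Chi and -0.17 to 0.36 for the difference. Reversed single members, none of which passed, were Rps4x for averaged IL-21 (-0.2 without the Ly6Chi IL-21 library 1, up to 0.45 without its library 2) and for Ly6Clo against Ly6Chi (-0.31 without the Ly6Chi IL-21 library 2, but 0.36, 0.01 and 0.06 without its library 1, the unstimulated Ly6Chi library 1 and the Ly6Clo IL-21 library 2), Rps29 for averaged IL-21 (0.02 without the unstimulated Ly6Chi library 1, down to -1.4 without its library 2), and, with copies added, Rps27a for IL-21 in Ly6Chi (-0.05) and Rps13 for Ly6Clo against Ly6Chi (0.29). With the block and copies added these were -0.05 and 0.3, and Rps4x for Ly6Clo against Ly6Chi was 0.0; the cause was not tested. A denominator without mitochondrial-encoded genes was not run, as no such gene is among those analysed here. Depth limits low members: the lowest library held 2.0 counts of Rps29, 2.0 of Rpl19 and 0.0 of Rpl36a.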
